A study of Homo sapiens with 121 samples.

Results

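The 22 human embryonic stem cells (hESCs) with the most TERF1 transcript were compared with the 22 with the least, gene by gene, across 6185 other genes. Both sets were cut from the 68 of 121 single cells in which more than 8000 genes were above a TPM of 1, TPM being the level of a transcript scaled for its length and for the total of its cell. The members were chosen by the TERF1 TPM of those 68 ranked cells, so TERF1 itself is given as a description of the ranking and not as a result. Every cell came from the established hESC line WA26, kept undifferentiated without feeder cells in E8 medium on Matrigel, with no treatment or genetic change named. From each lysed cell the poly(A) RNA was pulled out for a Smart-seq2 library, and the genomic DNA left behind was used for a PCR of telomere repeats, by which the cell was titled Long, Medium or Short. The 121 cells were 81 Long, 25 Medium and 15 Short, and the 68 ranked cells were 51 Long, 14 Medium and 3 Short. No culture, passage or batch was named for any cell, so each set counted as 1 sample of 1 line and no test was made between the sets. The spread quoted below is the SD across cells.

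Telomeres are the repeat arrays that cap chromosome ends, and in vertebrates they are held by the shelterin complex. TERF1, also called TRF1, is the shelterin subunit that binds the double-stranded repeats directly, where it takes part in replication of the array and in limiting its elongation by telomerase. TINF2 links TERF1 to the other double-stranded repeat binder TERF2, which brings TERF2IP, and ACD joins POT1, the binder of the single-stranded overhang. TERF1 transcript is abundant in pluripotent stem cells. The gene lies on chromosome 8 of GRCh37, from 73921091 to 73960358 on the plus strand. The annotation holds 7 pseudogenes named after it, and the share of its 50-base reads that could also match them was not measured.

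TERF1 ran from 625.23 to 1081.96 TPM in the TERF1-high cells, with a median of 709.95 TPM. It ran from 122.37 to 420.26 TPM in the TERF1-low cells, with a median of 347.1 TPM. The 24 cells between them lay from 433.61 to 619.96 TPM. The sets were separated by 1.21 on the log2(TPM + 1) scale by construction, and their borders fell in a continuous range, since the cell ranked 22 had 625.23 TPM and the next 619.96 TPM, while the cells ranked 46 and 47 had 433.61 and 420.26 TPM. The cell just inside the limit on detected genes had 8064 genes above TPM 1 and the one just outside had 7686.

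The telomere label, which was not used for the ranking, was unevenly spread over it. The TERF1-high set held 19 Long, 3 Medium and 0 Short cells, so 86.4% were Long (exact 95% binomial interval 65.1% to 97.1%, counting error only). The TERF1-low set held 10 Long, 9 Medium and 3 Short cells, so 45.5% were Long (interval 24.4% to 67.8%). In the middle of the ranking 22 of 24 cells were Long. Seen from the labels, 9 of the 14 Medium cells and 3 of the 3 Short cells were TERF1-low, against 10 of the 51 Long cells. The lowest Long cell had 340.48 TPM of TERF1, and the 10 cells ranked under it, from 337.1 TPM down, were Medium or Short. In the 53 cells left out for their fewer detected genes, 15 of the 17 cells highest in TERF1 were Long (88.2%, interval 63.6% to 98.5%), against 1 of the 17 lowest (5.88%, interval 0.149% to 28.7%). TERF1 level and telomere class moved together in both sets of cells, and the Long columns were therefore also compared on their own. The study had already reported a positive correlation of TERF1 with telomere length in these cells, so the uneven spread is no independent evidence.

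**Figure D1:**
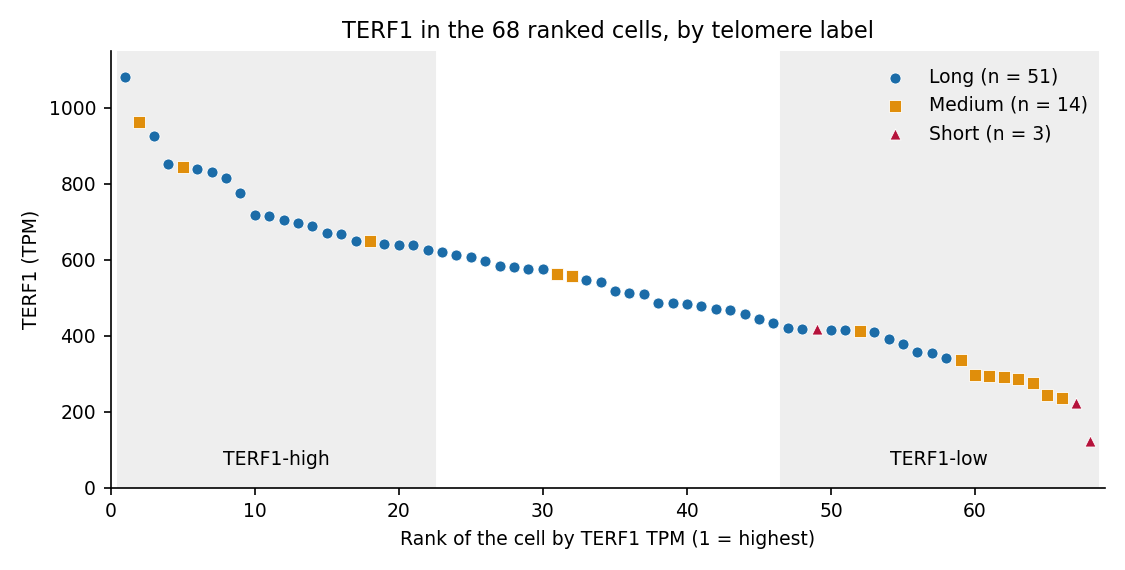
TERF1 in TPM (y axis) for each of the 68 ranked cells (x axis, rank 1 the highest), with the telomere label given by colour and marker and the 2 compared sets shaded. The 10 lowest cells hold no Long cell, while 3 Medium cells stand among the 22 highest.

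Library measures moved with the ranking to some degree. The number of genes above TPM 1 was 9311 ± 647 in TERF1-high, 10151 ± 730 in middle and 9691 ± 608 in TERF1-low cells. The summed TPM of 86 cytosolic ribosomal protein genes was 240662 ± 45319 in TERF1-high cells and 274708 ± 16851 in TERF1-low cells. Within the TERF1-high set, 6 cells stood apart, and their sums, from 147012 to 209686, lay under the lowest of the 46 other ranked cells, 223673. These 6 cells were 3 Long and all 3 Medium cells of the TERF1-high set, with 641.22 to 1081.96 TPM of TERF1, and the remaining 16 TERF1-high cells, each of them Long, had a ribosomal sum of 265305 ± 18547. The results were therefore also taken without those 6. Of 12 fibroblast, endothelial and blood markers and 20 germ layer markers, 0 reached the level needed for testing, and the former summed to 0.18 to 32.2 TPM in TERF1-high and 1.57 to 57.9 TPM in TERF1-low cells. The hESC markers POU5F1 and SOX2, the transcription factors that define pluripotency, were expressed in both sets, as described below.

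A gene was called when its mean log2(TPM + 1) differed by at least 1 and the difference ran the same way in at least 75% of the pairs formed by 1 TERF1-high and 1 TERF1-low cell. Among the 6185 genes with a mean of at least 10 TPM over the ranked cells, 31 were called higher in TERF1-high cells (0.501% of all tested) and 26 were called lower (0.42% of all tested). The middle 50% of all differences lay between -0.28 and 0.32, with a median of 0.03, and 53.0% of genes had a positive difference. No gene separated the sets without overlap, 0 in either direction. A further 98 genes were higher and 138 lower by at least 1 without reaching the share of pairs. Rescaling the same cells by the median ratio of their TPM values turned the split of 31 higher to 26 lower genes into 21 to 34. These are counts of genes past a fixed size, with no p-value behind them.

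**Figure D2:**
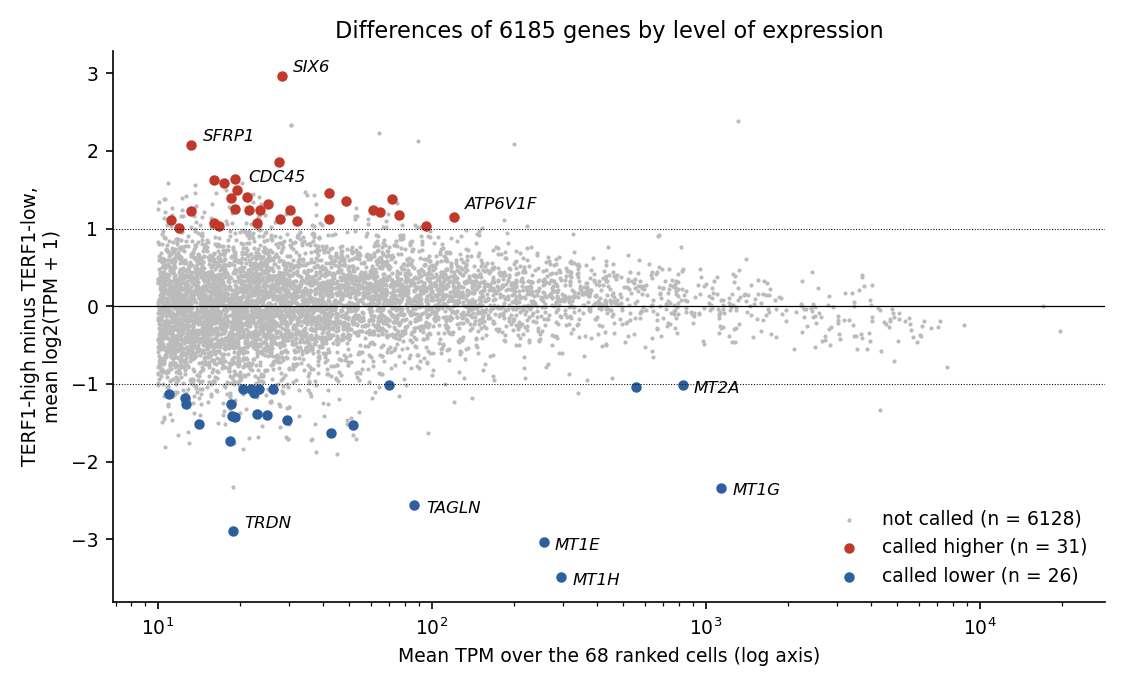
Difference in mean log2(TPM + 1) between 22 TERF1-high and 22 TERF1-low cells (y axis) against mean TPM over the 68 ranked cells (x axis, log scale), 1 point per gene. The 31 genes called higher and 26 called lower lie beyond the dotted lines at 1 and -1, and 3 metallothionein genes (MT1H, MT1E and MT1G) with TRDN and TAGLN stand furthest below 0.

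Among called and tested genes the largest positive difference belonged to SIX6, a homeobox transcription factor known from eye and forebrain development. SIX6 ranged from 0 to 307.55 TPM in TERF1-high cells with a median of 28.99 TPM, and from 0 to 54.18 TPM in TERF1-low cells, where it was listed at 0 in 13 of 22. It was above TPM 1 in 19 TERF1-high and 8 TERF1-low cells, and the ranges overlapped. On the log2(TPM + 1) scale the means were 4.69 ± 2.26 and 1.72 ± 2.36, a difference of 2.97, with 80.1% of pairs higher in the TERF1-high cell. SFRP1, a secreted inhibitor of WNT signalling, had a median of 19.86 TPM in TERF1-high cells, from 0 to 84.53, and of 1.57 TPM in TERF1-low cells, from 0 to 21.05. Its difference was 2.07, and 80.7% of pairs ran that way. It was above TPM 1 in 19 TERF1-high and 12 TERF1-low cells, while 3 cells of each set were listed at 0.

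CDC45, a part of the helicase that opens DNA at replication forks, was present above TPM 1 in 22 TERF1-high and 19 TERF1-low cells. Its TPM ran from 4.12 to 73.55 with a median of 21.37 in the former, and from 0 to 36.80 with a median of 7.37 in the latter, a difference of 1.50. CDCA5, or sororin, which keeps sister chromatids together, differed by 1.07. Among called genes the largest differences after SIX6 and SFRP1 were in CBWD3 (1.86), C1orf50 (1.65), the sterol reductase TM7SF2 (1.63) and MDFI, an inhibitor of myogenic transcription factors (1.59). IFT43, a component of the transport particles of cilia, differed by 1.46, the asparaginase ASRGL1 by 1.41 and SLC9A3R1, a scaffold under the cell membrane, by 1.39. CBWD3 belongs to a family of near-identical copies, so reads may have been split among them.

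Among the genes called higher, ATP6V1F had the largest share of pairs. ATP6V1F, a subunit of the proton pump that acidifies vesicles, ran from 42.17 to 488.41 TPM with a median of 134.45 in TERF1-high cells. In TERF1-low cells it ran from 11.54 to 261.93 TPM with a median of 72.58. The TERF1-high cell was higher in 84.7% of pairs, with a difference of 1.15 and SDs of 0.84 and 0.92. Among called genes CCDC12 followed with 83.3% of pairs, then DDAH2 and LSM10 with 82.6% each. LSM10 belongs to the ring of the U7 particle that trims histone mRNA, and its TPM had a median of 128.88 in TERF1-high and 65.50 in TERF1-low cells. NR6A1, an orphan nuclear receptor of germ and early embryonic cells, and PARL, a protease of the inner mitochondrial membrane, had 81.2% each. CTDNEP1, a phosphatase of the nuclear envelope, had 79.5%.

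**Figure D3:**
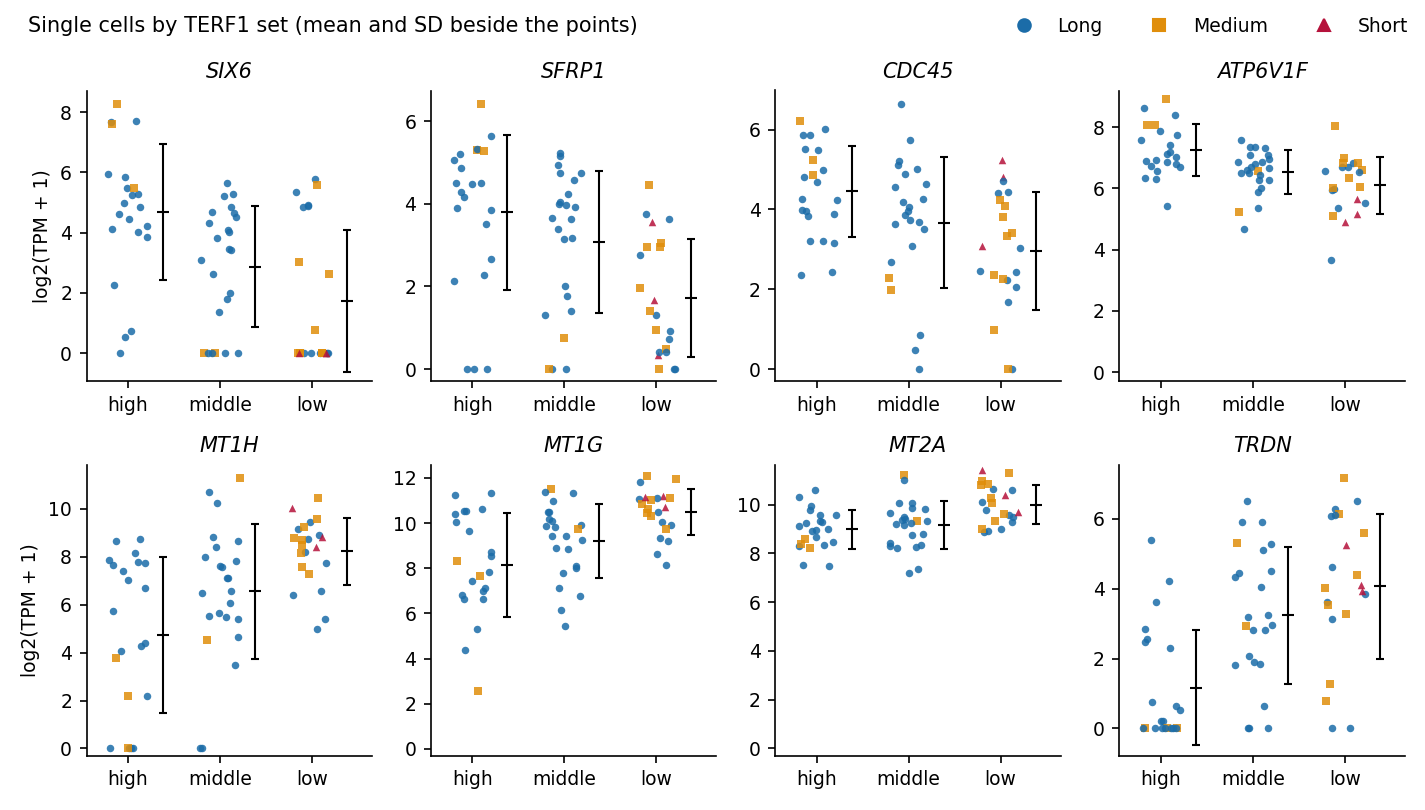
log2(TPM + 1) of 8 genes (1 per panel) in single cells of the TERF1-high (n = 22), middle (n = 24) and TERF1-low (n = 22) sets, with the telomere label by colour and the mean and SD beside the points. SIX6, SFRP1, CDC45 and ATP6V1F lie higher and MT1H, MT1G, MT2A and TRDN lower in TERF1-high cells, with overlap in each gene.

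The lower side was led by metallothioneins, small cysteine-rich proteins that bind zinc and copper and whose genes are switched on by metals through the factor MTF1. Of 15 metallothionein genes read, 9 were expressed enough to be tested, the 9 differences were all negative, and 4 of the 9 were called lower, with a median of -1.01 against 0.03 over all genes. This list was drawn up after these values were seen. The genes sit side by side on chromosome 16 of GRCh37, from MT2A (56642496 to 56643409) through MT1E (56659387 to 56661024), MT1G (56700642 to 56701977) and MT1H (56703726 to 56705041) to MT1X (56716382 to 56718108). Because these 9 genes lay low together, the 250 bases before the start of the 3 of them that RefSeq promoters of build GRCh38.p14 covered are shown here, 5′ to 3′ on the plus strand. Capitals mark the core of the metal response element, TGCACNC or TGCGCNC on either strand, and matches do not overlap. The stretches are chr16:56669564-56669813 for MT1H, chr16:56608334-56608583 for MT2A and chr16:56682220-56682469 for MT1X.
MT1H: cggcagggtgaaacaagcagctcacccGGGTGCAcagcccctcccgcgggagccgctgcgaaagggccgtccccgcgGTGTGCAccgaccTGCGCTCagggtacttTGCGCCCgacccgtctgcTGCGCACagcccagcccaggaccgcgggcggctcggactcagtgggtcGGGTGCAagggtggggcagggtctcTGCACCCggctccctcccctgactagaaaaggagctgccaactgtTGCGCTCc
MT2A: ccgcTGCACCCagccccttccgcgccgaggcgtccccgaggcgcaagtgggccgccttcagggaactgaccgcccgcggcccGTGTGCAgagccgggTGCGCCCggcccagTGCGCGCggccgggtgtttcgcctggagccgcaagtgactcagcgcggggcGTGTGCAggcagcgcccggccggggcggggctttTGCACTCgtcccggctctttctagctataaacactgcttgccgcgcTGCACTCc
MT1X: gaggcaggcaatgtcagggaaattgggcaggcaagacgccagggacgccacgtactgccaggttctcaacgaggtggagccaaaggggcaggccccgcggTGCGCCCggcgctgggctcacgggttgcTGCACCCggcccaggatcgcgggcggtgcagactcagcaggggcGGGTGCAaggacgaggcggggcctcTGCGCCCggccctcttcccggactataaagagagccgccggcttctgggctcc

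The cores numbered 8 before MT1H, 7 before MT2A and 4 before MT1X. Of 34943 RefSeq promoters cut to the same length, 24.8% held at least 1 such core, 0.369% at least 4 and 0.0515% at least 6. A match of letters describes the sequence and does not show that the site is bound. The difference was -3.49 for MT1H and -1.01 for MT2A, both called, and -0.66 for MT1X, which was not.

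MT1H ran from 0 to 422.35 TPM with a median of 36.69 in TERF1-high cells and from 30.41 to 1398.34 TPM with a median of 388.25 in TERF1-low cells. It was listed at 0 in 5 TERF1-high cells and in 0 TERF1-low cells, and 14.7% of pairs were higher in the TERF1-high cell. MT1G ran from 5.00 to 2551.57 TPM with a median of 275.76 in TERF1-high cells. In TERF1-low cells it ran from 282.58 to 4421.35 TPM with a median of 1622.11, a difference of -2.34. For MT1E the medians were 51.64 and 333.85 TPM and the difference -3.04. MT2A, the most widely expressed of the family in human cells, had medians of 500.24 and 967.77 TPM. MT1X (-0.66), MT1F (-0.94), MT1M (-1.68), MT1A (-0.27) and MT1L, for which 40.5% of pairs were higher in the TERF1-high cell, completed the 9. MT1L is annotated as a transcribed pseudogene. So are MT1DP and MT1IP among the genes read but not tested, and MT1JP is annotated as a noncoding RNA. The 50-base stretches were pooled over all annotated transcripts of each gene. Of them, 7.1% in MT1E, 16.3% in MT1G, 7.48% in MT1H and 2.19% in MT2A also occurred in another metallothionein. They were not weighted by reads, so the share of reads that could have been assigned to another member was not measured. Across the 68 cells the Spearman correlation over the 36 pairs of these 9 genes ran from 0.217 (MT1A with MT1L) to 0.905 (MT1E with MT1G), with a median of 0.529, as a description of genes counted in the same libraries that share sequence.

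Summed per cell, the 9 metallothionein genes took 622.72 to 6822 TPM with a median of 1500 in TERF1-high cells, 462.01 to 10355 TPM with a median of 2708 in the middle, and 1532 to 12000 TPM with a median of 4972 in TERF1-low cells. The sum was above the median of the 68 cells in 7 of 22 TERF1-high and 18 of 22 TERF1-low cells. The 6 TERF1-high cells with little ribosomal protein RNA had 958 to 2168 TPM with a median of 1308, and 0 were above that median. The other 16 TERF1-high cells, each of them Long, had a median of 2483 TPM, near that of the middle, with 7 of 16 above it. The telomere label moved with the sum. Among TERF1-low cells the 12 Medium and Short cells had sums from 3270 to 12000 TPM with a median of 5856, and the 10 Long cells had sums from 1532 to 8104 TPM with a median of 3085. The 19 Long cells of the TERF1-high set had a median of 1955 TPM, and its 3 Medium cells, all in the group with little ribosomal protein RNA, had 958 to 1394 TPM. In the 9 Medium TERF1-low cells the sum ran from 3270 to 12000 TPM. TERF1 level and the low ribosomal protein RNA of those 3 cells cannot be told apart here.

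Outside this family, TRDN, triadin, a protein of the calcium release complex in muscle, differed most. It had a median of 0.16 TPM in TERF1-high cells, from 0 to 40.63, and of 15.54 TPM in TERF1-low cells, from 0 to 142.10. It was above TPM 1 in 7 of 22 TERF1-high and 19 of 22 TERF1-low cells, and its means of 1.17 ± 1.65 and 4.07 ± 2.08 differed by -2.90. TAGLN, or transgelin, an actin-binding protein, differed by -2.56, with medians of 9.41 and 50.54 TPM. BORA, an activator of Aurora A at mitotic entry, differed by -1.73, the lens crystallin CRYGD by -1.64 and the noncoding PWAR5 of the Prader-Willi region by -1.53. TRUB1, a pseudouridine synthase of tRNA, differed by -1.51 with medians of 6.52 and 18.10 TPM, and MED20, a Mediator subunit, by -1.47 with medians of 13.14 and 31.66 TPM. The deubiquitinase MYSM1 (-1.39, 15.7% of pairs) and PREPL (-1.26, 16.3% of pairs) had among the lowest shares of pairs. SLC30A5, a zinc transporter named here after its values were seen, differed by -1.07.

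Among the Long columns, 19 TERF1-high and 10 TERF1-low cells remained, with TERF1 apart by 0.92 on the log2(TPM + 1) scale. In this smaller comparison 43 genes were called higher (0.695% of all tested) and 39 lower (0.631%). Of the 31 genes called higher in all cells 15 were still called, and of the 26 called lower 8 were still called. Each of the 57 kept its direction, and 18 of the 31 and 14 of the 26 still differed by at least 1, while the difference shrank in 24 and 21 of them. Since most of the same cells enter both comparisons, the shared direction is no independent evidence. When the 51 Long cells were ranked again and 17 compared with 17, 20 of all 6185 genes tested were called higher and 19 lower. Among them were 5 of the 31 and 5 of the 26.

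Of the higher genes, SFRP1 remained at 2.10, CDC45 at 1.55, C1orf50 at 1.60, TM7SF2 at 1.55 and CBWD3 at 1.38. IFT43 (1.88), SLC9A3R1 (1.78), LSM10 (1.20), CTDNEP1 (1.17), PARL (1.12), ATP6V1F (1.11) and CCDC12 (1.02) remained too, as did IMP4, SVBP and TMEM242. In SFRP1 the median was 16.85 TPM in the 19 and 0.77 TPM in the 10 Long cells, and in CDC45 17.93 and 4.46 TPM. The lower genes that remained were TRDN (-2.66), CRYGD (-1.81), MED20 (-1.61), TRUB1 (-1.33), SLC30A5 (-1.31), PREPL (-1.28), CWF19L1 (-1.17) and TMEM64 (-1.05). TRDN had medians of 0.43 and 18.48 TPM there.

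SIX6 did not remain, since its difference was 1.72 with 66.1% of pairs and its medians in Long cells were 23.40 and 14.07 TPM. None of the 4 called metallothioneins remained, at -2.38 for MT1H (25.8% of pairs), -1.79 for MT1E, -1.50 for MT1G and -0.55 for MT2A. TAGLN stood at -1.65 with 35.3% of pairs, and S100A10, a calcium-binding partner of annexin, moved from -1.04 to -0.22. The metallothionein median was -0.53 in Long columns against -1.01 in all cells. The Long cells also span less TERF1, and they leave out the 3 Medium TERF1-high cells, all with little ribosomal protein RNA. Whether the smaller values reflect telomere class, the narrower span of TERF1 or the cells left out cannot be told apart.

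**Figure D4:**
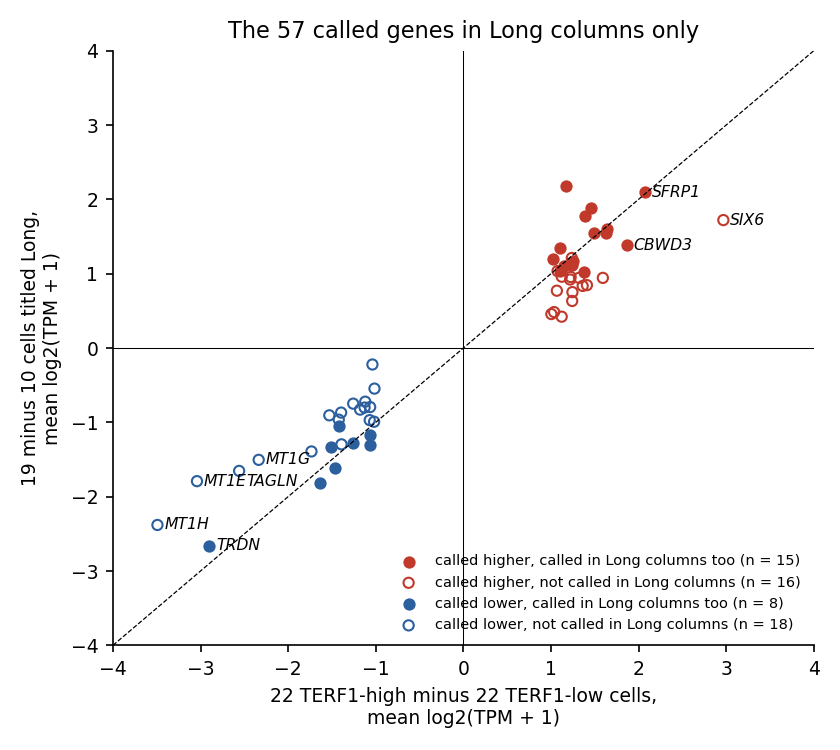
Difference in mean log2(TPM + 1) among the 19 TERF1-high and 10 TERF1-low cells titled Long (y axis) against that among all 22 and 22 cells (x axis) for the 57 called genes, with the dashed line marking equal values. All 57 points keep their sign, and filled points mark the 15 higher and 8 lower genes that were called in both.

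The 6 TERF1-high cells with little ribosomal protein RNA were then left out, an alternative chosen after the data were seen. Of all 6185 genes tested, 16 were called higher and 15 lower without them. Of these, 8 and 8 were among the genes called before, and each of the 57 kept its direction. SIX6 stood at 2.09 with 73.7% of pairs, SFRP1 at 1.46 with 73.4% and CDC45 at 1.09 with 71.6%, all under the share of pairs needed. MT1H (-3.05) and MT1E (-2.59) were still called, and MT1G (-1.68, 25.6% of pairs) was not. Only 10 of the 57 genes were called in all cells, in Long columns and without the 6 cells. The 5 higher ones were IFT43, SLC9A3R1, CCDC12, PARL and CTDNEP1, and the 5 lower ones TRDN, TRUB1, MED20, SLC30A5 and TMEM64.

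The other shelterin genes stood at low levels. TERF2IP differed by 0.64, with means of 3.65 ± 1.45 and 3.01 ± 1.60, and TINF2 by 0.56, with means of 3.50 ± 1.80 and 2.94 ± 1.86. Both differences were under 1 SD, and 0 of these 2 tested genes were called. TERF2 (-0.32), ACD (0.18) and POT1 (-0.69) lay under the limit of 10 TPM and were not tested.

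Of 11 partners and regulators of TERF1, 6 were tested and 0 called, with a median of 0.19. GNL3, or nucleostemin, a nucleolar GTPase that binds TERF1, stood out in its pairs. It had means of 7.73 ± 0.57 and 6.97 ± 0.63, a difference of 0.76, and the TERF1-high cell was higher in 82.9% of pairs. In Long columns its difference was 0.54 and without the 6 cells 0.51. PINX1, a telomerase inhibitor that binds TERF1, differed by 0.41, BLM, a helicase at telomeric replication forks, by 0.30, and the mitotic kinase PLK1 by 0.08. The poly-ADP-ribose polymerase TNKS2, which releases TERF1 from telomeres, differed by -0.02, and GNL3L, a paralog of GNL3, by -0.41. TNKS (-0.83), NEK7 (-1.07), RLIM (-0.11), FBXO4 (-0.07) and RTEL1 (0.11) lay under the limit of 10 TPM and were not tested. In Long columns TNKS stood at -1.37 with 15.8% of pairs.

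Of 15 genes of telomerase and its assembly, 12 were tested and 0 called, with a median of 0.18 and 8 of the 12 positive. DKC1, the pseudouridine synthase that stabilises the telomerase RNA, differed by 0.77, with means of 6.19 ± 1.04 and 5.43 ± 1.06. It differed by 0.47 in Long columns and by 0.32 with 58.2% of pairs without the 6 cells. SSB, the La protein, differed by 0.45 with 77.1% of pairs, NHP2 by 0.36, GAR1 by 0.32 and RUVBL2 by 0.28. PARN (0.19), NOP10 (0.17) and HSP90AA1 (0.11) were closer to 0, as were PTGES3 (-0.06), RUVBL1 (-0.09), NAF1 (-0.12) and WRAP53 (-0.13). TERT, the catalytic subunit, had a mean of 0.63 TPM over the 68 cells and was not tested, and the poly(A) selection of these libraries does not target the telomerase RNA TERC. Of 15 CST and other telomere genes, 8 were tested and 0 called, with TEN1, a CST subunit, at 1.39 (71.5% of pairs) and SMG5 at -0.72 as the extremes. In Long columns TEN1 was called higher, at 1.67 with 76.3% of pairs, and without the 6 cells it stood at 0.90. The 6 tested genes of a list that the study chose for correlation with telomere length on these cells were all positive, with a median of 0.13 and 0 called, and 4 of the 6 were positive in Long columns and 4 of the 6 without the 6 cells. Such a list is not independent evidence. AIMP2 (0.64) and MELK (0.49) led it, ahead of UBQLN1 (0.16), ACTR3B (0.10), MSH6 (0.05) and COMMD4 (0.01).

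Of 18 tested genes of pluripotency, 0 were called, 8 were positive and 10 negative, and the median was -0.15. POU5F1, or OCT4, had means of 10.21 ± 0.53 and 10.18 ± 0.29, a difference of 0.04, which was 0.28 with 76.7% of pairs without those 6 cells. SOX2 differed by 0.11, NANOG by -0.26, LIN28A by -0.28 and the DNA methyltransferase DNMT3B by 0.17. The extremes were NODAL, the signalling ligand that sustains pluripotency (-1.68, 32.2% of pairs), DPPA2 (-1.41) and LEFTY1, a NODAL antagonist (-0.95) on one side, and PRDM14 (0.74) on the other. Without the 6 cells with little ribosomal protein RNA these were -0.50 for NODAL, -0.54 for DPPA2, -0.21 for LEFTY1 and 0.31 for PRDM14, and the median of the list was 0.05. L1TD1, an RNA-binding protein of hESCs, differed by 0.53 with 78.5% of pairs, and its difference was 0.34 in Long columns. The others were LIN28B (-0.23), SALL4 (-0.19), ZFP42 (-0.11), TDGF1 (0.14), GDF3 (0.52), DPPA4 (-0.23), PODXL (-0.42) and USP44 (0.28).

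Several large gene groups leaned 1 way with few or no calls. Over all tested genes the median was 0.03 with 53.0% positive, and over those with a mean of at least 50 TPM it was 0.12. After rescaling by the median ratio, the median over all tested genes was -0.01. Of 29 tested S phase genes, 23 were positive, 1 was called higher (CDC45) and the median was 0.30. MCM2, of the replicative helicase, was next at 0.77, and DTL (-0.52) and CDCA7 (-0.45) were the lowest. The summed TPM of S phase genes was 3178 ± 543 in TERF1-high, 2721 ± 352 in middle and 2576 ± 396 in TERF1-low cells. The sum of G2/M genes was 8575 ± 3077 in TERF1-high and 8794 ± 3478 in TERF1-low cells, with a median difference of 0.03 over 38 genes and 0 called. Of these 38 genes, 22 were positive in all cells. In Long columns 10 of the 38 were positive, with a median of -0.15, where 50.8% of all genes tested were positive. CDC25C (0.60), TPX2 (0.42), NUF2 (-0.70) and CDK1 (-0.87) were the extremes of that list. Of 23 histone genes tested 19 were positive, with a median of 0.38 and 0 called, and HIST1H4C differed by 2.23 with SDs of 2.53 and 2.96. Without the 6 cells 16 of the 23 were positive, with a median of 0.19.

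Cytosolic ribosomal protein genes went the other way, with 73 of 84 negative, 0 called and a median of -0.19. RPS12 (-0.78) and RPL11 (-0.58) were the lowest, and RPL21, at 2.38 with values from 0 to 5296 TPM, is uncertain, since 133 annotated pseudogenes are named after it. Without the 6 cells set apart by these genes the median was -0.04. The 8 nuclear transcripts that resemble mitochondrial RNA were all negative, with a median of -0.42 that became -0.09 without those cells. Positive medians were found for spliceosome (0.22, 26 of 31 positive, LSM10 called higher), proteasome (0.24, 30 of 39), mitochondrial ribosomal protein (0.21, 56 of 77), oxidative phosphorylation (0.15, 53 of 78) and chaperonin CCT genes (0.14, 8 of 8). The 253 tested genes of the PluriNet list, a protein network of pluripotent cells, had a median of 0.20 with 170 positive and CDC45 and MT1G called, in opposite directions. Without the 6 cells these medians were 0.12 for spliceosome, 0.10 for proteasome, 0.04 for mitochondrial ribosomal protein, 0.02 for oxidative phosphorylation and 0.13 for PluriNet genes. Heterochromatin and ATRX-DAXX genes had a median of 0.31 over 13, with ATRX, a chromatin remodeller, and the histone gene H3F3B at 0.54 each and 0 called. The p53 and apoptosis list had a median of -0.20 over 10 genes, with MCL1, an anti-apoptotic factor, at -0.71 and 0 called.

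**Figure D5:**
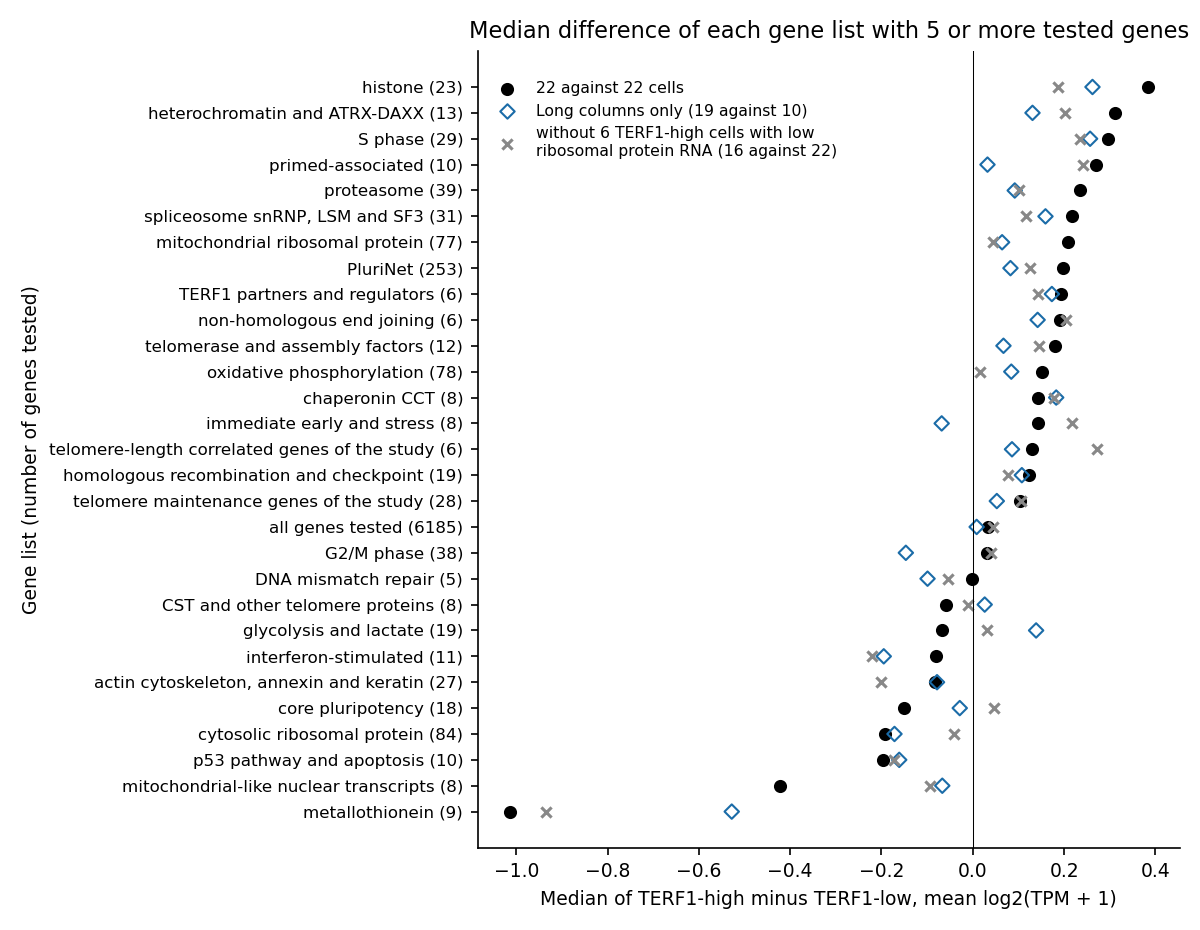
Median difference in mean log2(TPM + 1) (x axis) of each gene list with 5 or more tested genes (y axis, number tested in brackets) for all cells, Long columns, and without the 6 TERF1-high cells low in ribosomal protein RNA. Metallothionein genes lie furthest below 0 in each comparison, and the ribosomal protein and mitochondrial-like lists move toward 0 without the 6 cells.

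The same genes were then read in cells that the comparison had not used. In the middle 24 cells, the upper 12 against the lower 12 by TERF1, 22 of the 31 genes called higher were positive (71.0%, against 62.3% of all genes tested) and 11 of the 26 called lower were negative (42.3%, against 37.7%). In these shares of kept signs the members stood close to the rest of the genes. In this narrow range 1.5% of all tested genes were called higher and 0.372% lower. Of the 57 called genes, 2 ran the opposite way past the same limits there. SFRP1 stood at -1.47 with 21.5% of pairs and MED20 at 1.10 with 80.6%. SLC9A3R1 stood at -0.74 with 20.8% of pairs. Of the 10 genes called in each of the comparisons above, IFT43 (1.28), CTDNEP1 (0.68), CCDC12 (0.47) and PARL (0.25) kept their sign, and the 5 lower ones did not, with TRDN at 0.13, TRUB1 at 0.32, SLC30A5 at 0.69 and TMEM64 at 0.70 beside MED20. In the 53 cells with fewer detected genes, 17 against 17, 26 of the 31 were positive (83.9%, against 71.8% of all) and 18 of the 26 were negative (69.2%, against 27.9%), where 5% of all genes tested were called higher and 0.178% lower. The median over the lower genes was -0.40 there, against 0.51 over all genes. MT1G differed by -3.63 with 28.7% of pairs and TAGLN by -1.97 with 32.5% in those cells. MT1H differed by -1.67 with 40.1% of pairs and MT2A by -1.23 with 38.1%. The summed metallothioneins had a median of 728 TPM in the 17 cells highest in TERF1 and 892 TPM in the 17 lowest. On the log2(TPM + 1) scale the means of that sum were 8.26 ± 2.92 and 9.76 ± 2.68. MT1E stood at -0.40 with 50.2% of pairs, while MT1X (0.82) and MT1L (0.76) were positive. Of the 57 called genes 4 differed by at least 1 in the opposite direction, CCDC12 at -1.91 with 29.8% of pairs, TSPAN14 at -1.01, TMEM128 at 1.71 and TMEM64 at 1.10. SIX6 (-0.09) was near 0, TRDN stood at -0.40, and PARL (2.92), IFT43 (2.04), SLC9A3R1 (1.66) and SFRP1 (1.18) were positive. Telomere class differs between these 17 and 17 cells as well, as given above.

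No chromosome stood far from 0. The median difference per chromosome ran from -0.06 on chromosome 5 to 0.17 on chromosome 19, where 67.0% of 291 genes were positive, and it was 0.05 on chromosome 8. Within 2 Mb of TERF1, 7 genes were tested and 0 called, from UBE2W at -0.74 to STAU2 at 0.27. The 4 genes called lower on chromosome 16 were the 4 metallothioneins.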

How the data were processed

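Smart-seq2 libraries of 121 single WA26 cells were sequenced by the authors as single-end 50-base reads. The deposited table gives 1 TPM value per gene and cell. The submitters' processing notes name TopHat2, RSEM and hg19, while the methods describe TopHat with counting by HTSeq, so how reads with several matches were shared is not settled. Sums per cell were 979828 to 997050 TPM, read depth is unknown, and detected genes ranged from 2030 to 11515. The table as held here ends at symbols in ZFR, and later symbols were not analysed here.

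Cells were grouped by their titles and ranked by TERF1. Differences are of mean log2(TPM + 1) with a pseudocount of 1, which understates changes of low genes, over genes with a mean of at least 10 TPM. Pairs with equal values counted for both sides equally. No test was made, since cells are not replicates. Named were the 10 called genes with the largest and the 10 with the most negative difference, the 10 with the highest and 10 with the lowest share of pairs, the tested members of the telomere and pluripotency lists, and the 2 highest and 2 lowest of other lists. The cells, members and lists were chosen with earlier results of these data known, and the metallothionein, interferon and cytoskeleton lists after their values were seen. Positions came from GENCODE on GRCh37, by symbol or RefSeq synonym, and promoters from RefSeq (GRCh38.p14). The code was tested on simulated data. Scripts ran in Python 3.11.15 with scipy 1.17.1 and pandas 2.3.3.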

Additional observations from a re-analysis of the deposited data

Results flagged for a closer look

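Among the 10 TERF1-low Long cells, 27 quantities of the Long comparison were examined for a cell far from the rest, by its gap to the nearest cell as a share of the whole range, on log2(TPM + 1) for genes. In 3 of them the lowest cell lay past the critical value of 0.466. ATP6V1F was 11.54 TPM in that cell and 40.45 TPM in the next, a gap of 0.544 of the range. PARL was 3.47 TPM against 18.75 TPM, a gap of 0.509. TRUB1 was 2.06 TPM against 8.44 TPM, a gap of 0.562. These were 3 different cells. The limit is one that about 1 in 20 groups of normally distributed values passes by chance. That rate need not hold here, since the genes were called in these cells and several were at 0 TPM in more than 1 cell. For ATP6V1F and PARL the far cell adds to the difference reported, and for TRUB1 it works against it.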

How the results depend on the processing

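All 57 called genes kept their direction under each alternative that could give a value, 869 values in all. The genes were called for their difference in these cells, and the alternatives reuse most of the same cells, so a kept direction is no independent evidence. In the middle cells, which the comparison had not used, 22 of the 31 higher and 11 of the 26 lower genes kept it. No paired analysis was possible because the result comes from no test and a cell number shared by the Long, Medium and Short titles names unrelated cells. The counts of calls were less steady. Against 31 genes called higher and 26 lower, a pseudocount of 10 left 4 and 6, a mean of at least 50 TPM left 6 and 8, 34 against 34 cells gave 4 and 3, and 12 against 12 cells gave 188 and 104, of which 23 and 21 were among the genes called before. Calling by a difference of at least 1 alone gave 129 and 164. Without a filter 45 were lower, with more than 9000 detected genes 13 were lower, and after regression on the number of detected genes 11 were lower. Ranking the cells again by rescaled TPM gave 20 higher, and so did ranking the Long columns again (20 higher). Leaving out the 6 TERF1-high cells with low ribosomal sums, chosen after the data were seen, gave 16 higher and 15 lower, and in Long columns 47 higher. Rescaling the same cells by the median ratio turned the split of 31 to 26 into 21 to 34, and rescaling without ribosomal protein genes into 23 to 34. The share of Long cells was 100% among TERF1-high cells without the 6 (16 of 16) and 16.7% among the 12 lowest cells. The cause of these shifts was not tested, beyond the fewer genes or cells that an alternative holds. Of 2997 values of named genes under the alternatives, 1 moved by over 1 SD across cells. That limit is wide, and this count does not show that the values were stable. NODAL, from -1.68 to -0.50 without the 6 cells, and PWAR5, from -1.53 to -0.47, lay inside it. Read depth is unknown, so an undetected gene cannot be told from an unsampled one.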

Other observations

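The actin-binding TAGLN and the annexin partner S100A10, both called lower in TERF1-high cells, were set beside 27 tested genes of the actin cytoskeleton, annexins and keratins, a list made after their values were seen. Those 2 were called, 18 of the 27 were negative and the median was -0.08. TAGLN2 (-0.96, 24.4% of pairs), the intermediate filament gene VIM (-1.36), LGALS1 (-1.64), EMP3 (-1.77) and ANXA1 (-2.32) were lower without being called. ANXA1 was above TPM 1 in 10 of 22 TERF1-low cells, with a highest value of 461.20 TPM, and in 1 of 22 TERF1-high cells, and its difference was -0.40 in Long columns. KRT18 (0.32), KRT8 (0.20) and TPM3 (0.30) were higher.

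ISG15, a ubiquitin-like protein induced by interferon, had medians of 6.37 TPM in TERF1-high and 33.62 TPM in TERF1-low cells, a difference of -1.88 with 25.8% of pairs. It stood at -2.22 in Long columns, where it was called, at -0.38 in the middle cells and at -2.92 in the cells with fewer genes. Over 11 tested interferon-stimulated genes 8 were negative, with a median of -0.08 and 0 called, and IFITM1 (-0.02) and B2M (-0.02) were close to 0. NUCB2, a calcium-binding protein, differed by 1.59 in all cells with 73.9% of pairs and by 1.94 with 87.9% in Long columns. These genes were chosen after their values were seen.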
